A study of Mus musculus with 12 samples.

Results

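The 10 genes described here were the glucocorticoid receptor gene Nr3c1, 5 genes known as targets of that receptor or of stress signalling (Tsc22d3, Fkbp5, Sgk1, Zbtb16 and Gadd45b), the metallothionein genes Mt1 and Mt2, and the metal transporter genes Slc39a14 and Slc30a10. They were taken by gene symbol from a table of 53796 rows, and all 10 were among the 11718 genes that passed the filter on low values and were tested. Liver RNA of mice was sequenced in 4 groups of 3 libraries. The Sham group was wild type and is the only group with a sham label. The WT group was wild type, the RIPK1 D138N group carried the kinase-dead allele of Ripk1, and the third was labelled TNFR1/2 KO. These 3 groups were taken as livers after ischemia, which the labels of single samples do not state. With no sham libraries of the mutants to compare, baseline differences and different responses to ischemia cannot be told apart. Strain, sex, age and the time after surgery are not given in the sources used here, nor whether the repeats of a group were separate animals, so p-values measure only the spread between these libraries.

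Glucocorticoids enter the cell and bind the receptor encoded by Nr3c1, which is held in the cytoplasm by chaperones and, once bound, acts in the nucleus at glucocorticoid response elements. In the liver the receptor raises genes of gluconeogenesis and amino acid breakdown, and genes that restrain inflammation. Metallothioneins are small cysteine-rich proteins that bind zinc and copper, and their genes respond to zinc through the transcription factor MTF1 at metal response elements, and also to glucocorticoids and to interleukin 6. Slc39a14 (ZIP14) brings zinc, iron and manganese into hepatocytes and is known to rise in the acute phase response, whereas Slc30a10 exports manganese.

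The upstream windows of Mt1 and Mt2 are shown first because both genes are known to be read through metal response elements. The windows are from RefSeq on GRCm38.p6, the same build as mm10, and positions are counted from the annotated transcription start. Capitals mark the core of a metal response element, searched on both strands as TGCACNC or TGCGCNC, and, in Mt1, the 13-base run GGACATGATGTTC, a match to the glucocorticoid response element pattern, searched as GNACA and TGTNC with any 3 bases between them. The Mt1 sequence is chr8:94178839-94179088 and the Mt2 sequence is chr8:94172368-94172617, both on the plus strand.
Mt1 upstream: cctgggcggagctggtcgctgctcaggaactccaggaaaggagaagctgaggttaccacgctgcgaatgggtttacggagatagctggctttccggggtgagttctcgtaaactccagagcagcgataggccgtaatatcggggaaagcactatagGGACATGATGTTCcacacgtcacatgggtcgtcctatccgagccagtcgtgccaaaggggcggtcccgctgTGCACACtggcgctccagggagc
Mt2 upstream: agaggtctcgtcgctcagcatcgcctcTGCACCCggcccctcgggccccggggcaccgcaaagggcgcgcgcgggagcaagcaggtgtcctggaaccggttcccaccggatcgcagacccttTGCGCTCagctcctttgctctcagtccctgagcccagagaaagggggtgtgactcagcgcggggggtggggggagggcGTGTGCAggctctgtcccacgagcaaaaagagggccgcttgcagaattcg

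Mt1 held the glucocorticoid element match beginning 94 bases before the start and 1 metal element core beginning 23 bases before it. A further 2 cores lay after the start, at chr8:94179091-94179115.
Mt1 after start: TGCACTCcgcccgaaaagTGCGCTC
Mt2 held 3 cores before the start, at 223, 128 and 50 bases, and 1 core on the minus strand just after it, GTGCGCA at chr8:94172622-94172628. These starts are those of RefSeq, and the GENCODE gene Mt2 began further downstream, at chr8:94172664, after the last of these cores. In both genes the letters TATAAA began inside the GENCODE transcript, at base 129 of Mt1 and base 90 of Mt2, so the annotated starts lay upstream of them. The windows ended before these letters, at chr8:94179138 for Mt1 and chr8:94172667 for Mt2. The bases between the end of a window and TATAAA were therefore not searched. Of 32851 windows of this length (300 bases) over all genes, 25.7% held at least 1 core of either form, 1.97% held at least 3 and 0.517% held at least 4. TGCACNC alone was in 12.6% and TGCGCNC alone in 15.4%. The glucocorticoid pattern was in 0.475% of the windows.

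The other member with a glucocorticoid pattern match was Sgk1, in 1 of its 6 windows, where the match began 188 bases before the start. It is shown in capitals because it carries the same pattern as the Mt1 run, in chr10:21993678-21993737 on the plus strand.
Sgk1 upstream: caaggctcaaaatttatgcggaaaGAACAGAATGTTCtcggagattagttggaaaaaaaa
Over their 13 bases the Mt1 and Sgk1 matches differed at 3 positions. Windows were found for 7 of the 10 genes, 14 windows in all, and Nr3c1, Zbtb16 and Slc39a14 had none. Neither pattern was found in the 3 windows of Tsc22d3 or the single windows of Fkbp5 and Gadd45b, and that of Slc30a10 held 3 matches to TGCGCNC, of which 2 overlapped. A match is a run of letters and not a binding site, and windows of this length do not hold distal elements.

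The coding sequences of Mt1 and Mt2, from GENCODE M21, are given because the genes are similar in sequence, and a fragment that fits both could be assigned to either. Capitals mark the bases at which they differ.
Mt1 coding: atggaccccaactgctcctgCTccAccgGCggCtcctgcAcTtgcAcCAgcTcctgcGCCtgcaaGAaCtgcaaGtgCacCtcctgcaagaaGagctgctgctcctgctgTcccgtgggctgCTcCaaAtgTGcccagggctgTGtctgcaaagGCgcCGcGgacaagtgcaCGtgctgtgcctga
Mt2 coding: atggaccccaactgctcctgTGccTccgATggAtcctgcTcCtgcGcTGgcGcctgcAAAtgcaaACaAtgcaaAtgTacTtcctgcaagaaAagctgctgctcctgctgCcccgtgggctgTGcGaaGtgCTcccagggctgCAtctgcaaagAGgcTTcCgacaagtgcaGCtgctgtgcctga
Each is 186 bases long, with 61 codons before the stop, of which 20 in each gene code for cysteine. They shared 148 bases (79.6% identity), differed at 38, and the longest identical run was 20 bases.

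On mm10, Mt1 lay at chr8:94179082-94180327 and Mt2 at chr8:94172664-94173568. Tsc22d3 was at chrX:140539528-140600659, Fkbp5 at chr17:28399094-28517527, Slc39a14 at chr14:70303469-70351425 and Zbtb16 at chr9:48654297-48836222, all on the minus strand. On the plus strand, Sgk1 was at chr10:21882184-21999903, Gadd45b at chr10:80930073-80932204 and Slc30a10 at chr1:185454848-185468762. All 10 were annotated as protein coding, and values are 1 per gene. In the deposited table the loci of Mt2 and Slc30a10 began upstream of the GENCODE genes, and that of Nr3c1 ended short of the GENCODE gene at its 5' end.

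Values are FPKM, fragments corrected for transcript length and library size, as deposited. Fold changes were fitted on log2(FPKM + 1), which understates the change of low genes, and a gene was called at a Benjamini-Hochberg adjusted p under 0.05 in limma over all 11718 genes. No counts come with the table, but low values fell on steps of whole fragments, which put the depth at 11.63 to 63.01 fragments per FPKM and kilobase, lowest in Sham libraries b and c (11.63 and 11.66). The summed FPKM was 288886 to 303478 in WT, 649315 to 750430 in Sham and 441239 to 518521 in the mutants, and the median log2 change of all genes was -0.36 from Sham to WT. Median-of-ratios scaling moved that median to -0.10 and the calls from 1917 higher and 4911 lower to 2833 and 3512. With the same scaling, the calls against Sham went from 880 higher and 2657 lower to 1289 and 1420 in RIPK1 D138N, and from 875 and 2127 to 1233 and 1193 in TNFR1/2 KO. The calls of TNFR1/2 KO against WT went from 3463 higher and 2056 lower to 2854 and 3092 with quantile normalization, and those between the mutants from 41 and 68 to 44 and 42 with median-of-ratios scaling. RIPK1 D138N replicates 2 and 3 stood apart: Xist was at 20.1 and 23.4 FPKM there and at most 0.0824 in the other 10 libraries. Ddx3y, a gene of the Y chromosome, was at 0.0176 and 0 FPKM there and at 11.97 to 37.4 in the other 10. By these genes replicates 2 and 3 read as female and the other 10 libraries as male. Sex and genotype were therefore mixed in every comparison of RIPK1 D138N. Tnfrsf1a was still listed at 18.5 ± 3.28 FPKM (SD, n = 3) and Tnfrsf1b at 6.83 ± 2.70 in the libraries labelled TNFR1/2 KO, and FPKM of the whole gene cannot check a partial deletion. Ripk1 was at 3.48 ± 0.434 in RIPK1 D138N and 3.88 ± 0.858 in WT, which does not check a point mutation.

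Hepatocyte markers (8 of 9 measured above 0, with Alb listed at 0 in every library) summed to 28863 to 34015 FPKM in Sham, 5644 to 8594 in WT, 17718 to 19043 in RIPK1 D138N and 17630 to 21459 in TNFR1/2 KO. Kupffer cell and macrophage markers (11 genes) summed to 90.1 to 135.8, 78.8 to 109, 26.1 to 32.3 and 16.3 to 22.0 in the same order. The WT sum was carried by Cd68, at 49.6 ± 9.98 FPKM (SD, n = 3) in WT and 2.36 ± 0.308 in Sham. In limma 6 of the 9 tested markers were lower in WT than in Sham and 1 higher, beside 41.9% and 16.4% of all genes. Clec4f, which marks Kupffer cells, averaged 22.4 in Sham and 4.43 in WT. Of the other lists, 10 stellate cell and fibroblast markers reached 57.8 to 84.8, 133 to 164, 139 to 162 and 61.2 to 96.7, and 8 cholangiocyte markers 25.2 to 31.0, 68.5 to 203, 53.0 to 71.6 and 37.6 to 62.7. Neutrophil markers (10 genes) varied within groups, at 38.1 to 82.1, 4.71 to 291, 4.38 to 222 and 12.3 to 186, as did 10 endothelial markers, at 36.3 to 62.8, 27.9 to 34.0, 23.8 to 141 and 14.3 to 70.0. The 12 lymphocyte markers summed to 1.38 to 3.25, 0.708 to 2.67, 3.87 to 5.72 and 1.42 to 5.95, and only 1 of them passed the filter on low values. In bulk tissue, fewer cells of a type and less RNA per cell cannot be told apart, and the part of these differences in the results was not tested.

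Across the 6 comparisons the 10 genes moved in both directions. From Sham to WT, 5 of the 10 were called, 1 higher and 4 lower, where 58.3% of all tested genes were called, 16.4% higher and 41.9% lower. With quantile normalization the split was 5 higher and 3 lower. In RIPK1 D138N against WT, 6 were called, 2 higher and 4 lower, beside 51.8%, 29.8% and 21.9% of all genes. In TNFR1/2 KO against WT, 6 were called, 3 in each direction, beside 47.1%, 29.6% and 17.5%. Against Sham, 8 were called in RIPK1 D138N, 3 higher and 5 lower, where the shares of all genes were 30.2%, 7.51% and 22.7%. In TNFR1/2 KO against Sham 9 were called, 4 higher and 5 lower, beside 25.6%, 7.47% and 18.2%. Between the mutants 1 was called, lower in RIPK1 D138N, where 0.93% of all genes were called, 0.35% higher and 0.58% lower. Counted in either direction, the shares of the mutants against WT were therefore near those of all genes. Lower calls against WT took a larger share of the 10 genes than of all genes in both mutants, on 4 and 3 genes. The median log2 change of the 10 genes was -0.24 from Sham to WT, -0.25 and -0.36 in RIPK1 D138N and TNFR1/2 KO against WT, -0.51 and -0.28 against Sham, and -0.35 between the mutants. That of all genes was -0.36, 0.11, 0.14, -0.22, -0.18 and -0.05 in the same order. Comparisons that share the WT or the Sham libraries are not independent.

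**Figure D1:**
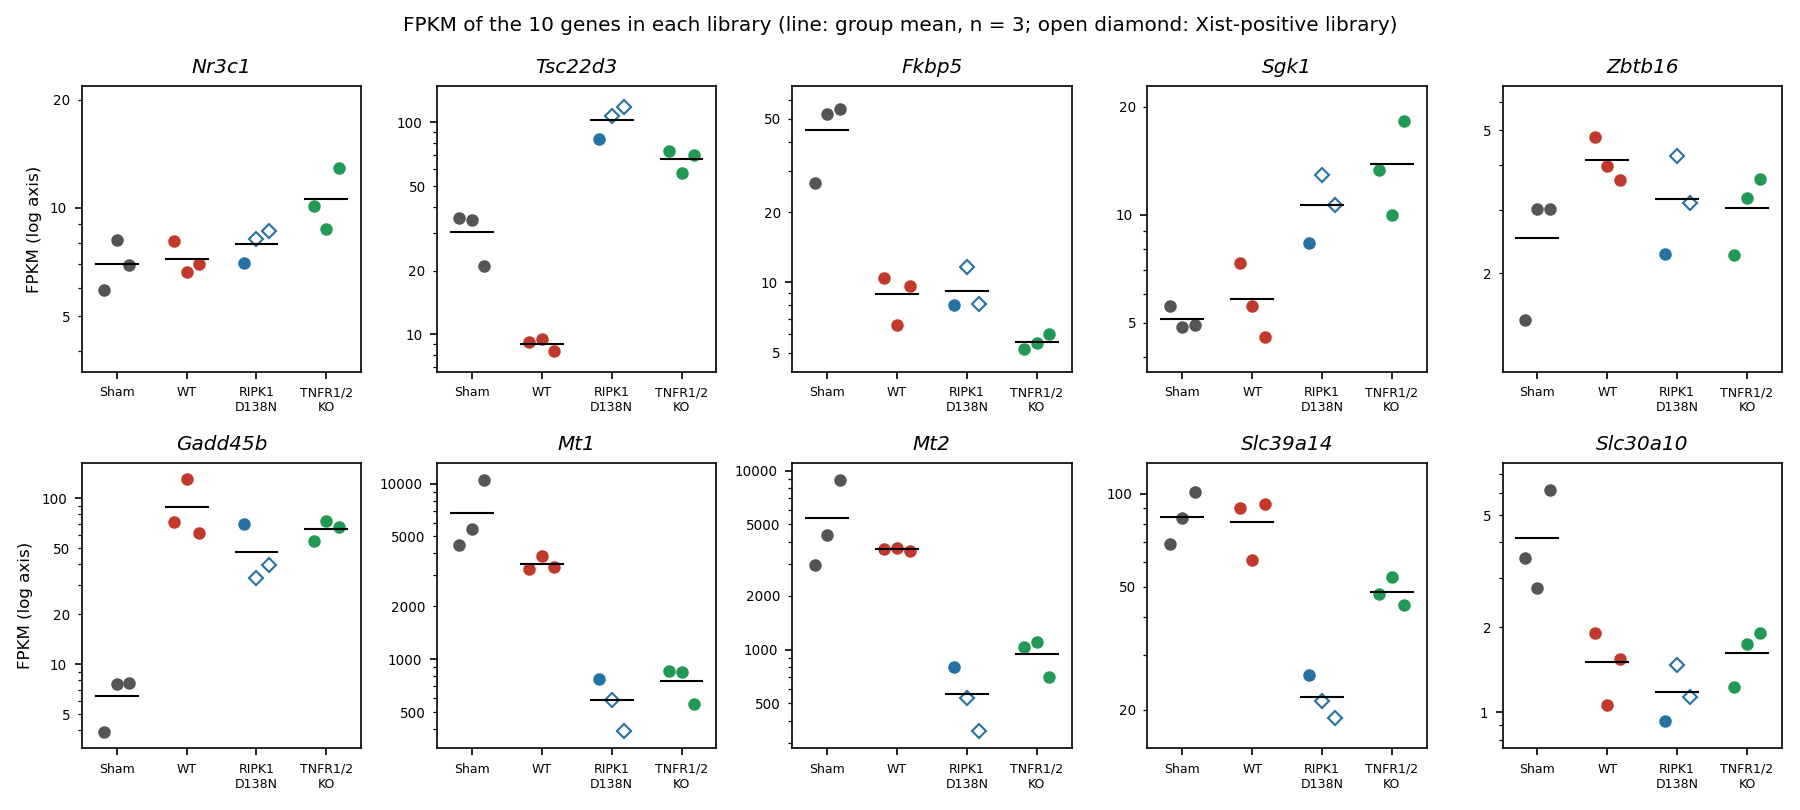
FPKM of each of the 10 genes in each of the 12 libraries on a log axis, with a line at the mean of the 3 libraries of a group; open diamonds are the 2 Xist-positive RIPK1 D138N libraries. Tsc22d3 was lowest in all 3 WT libraries (8.33 to 9.505 FPKM) and highest in all 3 RIPK1 D138N libraries (83.4 to 119), while Mt1, Mt2 and Slc39a14 were lower in every mutant library than in any WT or Sham library.

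The receptor gene Nr3c1 varied little. It stood at 5.92, 8.15 and 6.93 FPKM in Sham, 8.08, 6.65 and 6.96 in WT, 7.04, 8.19 and 8.61 in RIPK1 D138N replicates 1 to 3, and 10.1, 8.72 and 12.9 in TNFR1/2 KO. The Sham, WT and RIPK1 D138N libraries overlapped, and every TNFR1/2 KO library lay above them. In limma the log2 change was 0.05 (SE 0.174, adjusted p = 0.835) from Sham to WT and 0.12 (SE 0.174, adjusted p = 0.582) in RIPK1 D138N against WT. It rose in TNFR1/2 KO by 0.48 against WT (SE 0.174, limma adjusted p = 0.0369) and by 0.53 against Sham (limma adjusted p = 0.0418). Both calls were lost without TNFR1/2 KO replicate 1 (limma adjusted p = 0.0641 against WT and 0.0815 against Sham) or replicate 3 (0.155 and 0.167). The call against WT was also lost without WT library b or c (limma adjusted p = 0.0875 and 0.0957) and with either scaling (0.0955 and 0.167), and that against Sham without Sham library a or c (0.119 and 0.0860).

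Tsc22d3 encodes GILZ, a leucine zipper protein that restrains inflammatory transcription and is among the most direct targets of the receptor. It stood at 35.3, 34.8 and 20.99 FPKM in Sham and at 9.21, 9.505 and 8.33 in WT. In RIPK1 D138N it was at 83.4, 107 and 119, and in TNFR1/2 KO at 72.9, 57.9 and 70.3. No 2 groups overlapped, with WT lowest, then Sham, TNFR1/2 KO and RIPK1 D138N. It fell by 1.61 on the log2 scale from Sham to WT (SE 0.210, limma adjusted p = 3.27e-05), where the mean was 3.37 times higher in Sham. It was higher than in WT by 3.36 in RIPK1 D138N (SE 0.210, limma adjusted p = 3.78e-07), 11.4 times by the means, and by 2.76 in TNFR1/2 KO (SE 0.210, limma adjusted p = 1.24e-06), 7.44 times. Against Sham it was higher by 1.75 (limma adjusted p = 0.000128) and 1.15 (limma adjusted p = 0.00210). In RIPK1 D138N replicate 1 alone, without the Xist-positive libraries, the changes were 3.08 against WT and 1.46 against Sham, both still called. The difference between the mutants was 0.60 (95% interval 0.15 to 1.06, limma adjusted p = 0.230) and was not called.

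Fkbp5 encodes a co-chaperone that lowers the affinity of the receptor for its hormone and is itself induced by the receptor. Its values were 26.7, 52.5 and 55.3 FPKM in Sham, 10.46, 6.61 and 9.66 in WT, 7.99, 11.6 and 8.10 in RIPK1 D138N, and 5.19, 5.52 and 6.04 in TNFR1/2 KO. All 9 libraries taken as ischemic were below every Sham library, WT and RIPK1 D138N overlapped, and TNFR1/2 KO was lowest. Fkbp5 fell against Sham by 2.16 in WT (SE 0.262, limma adjusted p = 1.81e-05), by 2.11 in RIPK1 D138N (limma adjusted p = 0.000156) and by 2.73 in TNFR1/2 KO (limma adjusted p = 2.47e-05). The means of Sham were 5.03, 4.85 and 8.03 times higher. Against WT, it changed by 0.05 in RIPK1 D138N (95% interval -0.52 to 0.62, limma adjusted p = 0.882). In TNFR1/2 KO against WT the value was -0.57 (SE 0.262, limma adjusted p = 0.0913), which was called with median-of-ratios scaling (-0.70, limma adjusted p = 0.0299), with quantile normalization (-0.79, limma adjusted p = 0.0222) and without WT library b (-0.75, limma adjusted p = 0.0476).

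Tsc22d3 and Fkbp5, both known as receptor targets, therefore stood in different orders over the groups. The ratio of Tsc22d3 to Fkbp5 FPKM within a library, which no scaling of a whole library changes, was 1.32, 0.663 and 0.380 in Sham and 0.880, 1.44 and 0.862 in WT. It was 10.4, 9.18 and 14.7 in RIPK1 D138N and 14.1, 10.498 and 11.6 in TNFR1/2 KO. All 6 mutant libraries were above all 6 wild-type libraries, and WT overlapped Sham. Each mutant differed from WT and from Sham with an exact two-sided permutation p of 0.1, the smallest that 3 libraries against 3 allow, and 0.133 adjusted over the 12 ratio comparisons. The mutants overlapped (exact permutation p = 0.7).

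**Figure D2:**
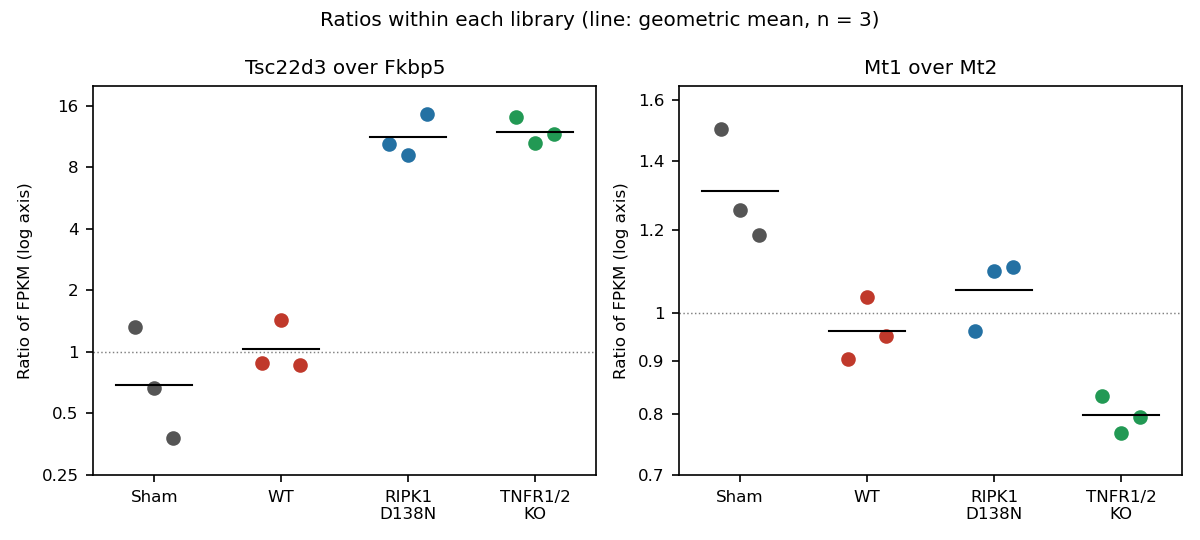
Ratio of Tsc22d3 to Fkbp5 FPKM (left) and of Mt1 to Mt2 FPKM (right) within each library, on log axes, with a line at the geometric mean of the 3 libraries of a group and a dotted line at 1. The left ratio was 9.18 to 14.7 in the mutants and 0.380 to 1.44 in WT and Sham; the right ratio was highest in Sham (1.19 to 1.501) and lowest in TNFR1/2 KO (0.768 to 0.834).

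Sgk1 encodes a serum- and glucocorticoid-regulated kinase of ion transport and cell survival. It was at 5.56, 4.85 and 4.93 FPKM in Sham, 7.35, 5.56 and 4.56 in WT, 8.31, 12.9 and 10.7 in RIPK1 D138N, and 13.3, 9.996 and 18.3 in TNFR1/2 KO. Sham and WT overlapped, and so did the mutants, which were both above the wild-type libraries. Sgk1 rose against WT by 1.10 in TNFR1/2 KO (SE 0.226, limma adjusted p = 0.00146) and by 0.77 in RIPK1 D138N (SE 0.226, limma adjusted p = 0.0123). Against Sham the rises were 1.24 (limma adjusted p = 0.00199) and 0.91 (limma adjusted p = 0.0101), and from Sham to WT the value was 0.14 (limma adjusted p = 0.617). Without the Xist-positive libraries the RIPK1 D138N values were 0.47 against WT (limma adjusted p = 0.265) and 0.61 against Sham (limma adjusted p = 0.240), and neither was called. The call of RIPK1 D138N against WT was also lost without WT library c (limma adjusted p = 0.0590) or RIPK1 D138N replicate 2 (limma adjusted p = 0.0528), and the one against Sham without both low-depth Sham libraries (0.81, limma adjusted p = 0.128).

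Zbtb16 encodes PLZF, a zinc finger transcription factor strongly induced by glucocorticoids in many tissues, and was low here. It was at 1.48, 3.01 and 3.03 FPKM in Sham, 4.78, 3.97 and 3.63 in WT, 2.26, 4.25 and 3.14 in RIPK1 D138N, and 2.25, 3.24 and 3.65 in TNFR1/2 KO. The mutants overlapped both wild-type groups, while every WT library was above every Sham library. The log2 change from Sham to WT was 0.58 (SE 0.235, limma adjusted p = 0.05001) and missed the threshold. It was called with median-of-ratios scaling (0.83, limma adjusted p = 0.00638), with quantile normalization (0.71, limma adjusted p = 0.0143), without Sham library b (0.69, limma adjusted p = 0.0427) and without Sham library c (0.69, limma adjusted p = 0.0406). Without Sham library a, in which Zbtb16 was lowest, the value was 0.34 (limma adjusted p = 0.212). No other comparison of Zbtb16 was called, and the log2 changes were -0.30 in RIPK1 D138N and -0.35 in TNFR1/2 KO against WT.

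Gadd45b encodes a stress sensor that activates MAP kinase signalling and is known as a target of NF-kB as well as of stress hormones. It was at 3.88, 7.62 and 7.74 FPKM in Sham, 71.6, 132 and 61.7 in WT, 70.4, 33.2 and 39.4 in RIPK1 D138N, and 55.3, 72.8 and 66.8 in TNFR1/2 KO. All 9 libraries taken as ischemic were above Sham, and these 3 groups overlapped each other. Gadd45b rose against Sham by 3.56 in WT (SE 0.332, limma adjusted p = 2.35e-06), by 2.69 in RIPK1 D138N (limma adjusted p = 0.000151) and by 3.19 in TNFR1/2 KO (limma adjusted p = 4.39e-05), which were 13.8, 7.43 and 10.1 times by the means. Against WT it was lower by the fit in RIPK1 D138N (-0.87, SE 0.332, limma adjusted p = 0.0426), although the libraries overlapped. That call was lost without WT library a (-0.98, limma adjusted p = 0.0569) or b (-0.55, limma adjusted p = 0.183), without RIPK1 D138N replicate 2 (-0.65, limma adjusted p = 0.151) or 3 (-0.77, limma adjusted p = 0.120), and without both of those, the Xist-positive libraries (-0.24, limma adjusted p = 0.672). In TNFR1/2 KO against WT the value was -0.37 (limma adjusted p = 0.387), -0.04 without WT library b (limma adjusted p = 0.929), and -1.25 with quantile normalization, where it was called (limma adjusted p = 0.00360).

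Mt1, with Mt2 the most abundant of the 10 transcripts per length, stood at 4477, 5501 and 10550.2 FPKM in Sham and at 3277, 3852 and 3367 in WT. It was at 769, 589 and 388 in RIPK1 D138N and at 858, 842 and 555 in TNFR1/2 KO. All 6 mutant libraries were below all wild-type libraries, and the mutants overlapped. Mt1 fell against WT by 2.64 in RIPK1 D138N (SE 0.330, limma adjusted p = 3.12e-05) and by 2.24 in TNFR1/2 KO (SE 0.330, limma adjusted p = 0.000126), where the WT means were 6.01 and 4.66 times higher. Against Sham it fell by 3.51 (limma adjusted p = 2.77e-05) and 3.11 (limma adjusted p = 5.02e-05). Without the Xist-positive libraries the change of RIPK1 D138N was -2.18 against WT and -3.05 against Sham, both called.

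Mt2 was at 2984, 4386 and 8872 FPKM in Sham and at 3627, 3715 and 3538 in WT. Its values were 799.9, 537 and 351 in RIPK1 D138N and 1029, 1096 and 698 in TNFR1/2 KO. The mutants were again below every wild-type library and overlapped each other, and Sham spanned the whole range of WT. Mt2 fell against WT by 2.77 in RIPK1 D138N (SE 0.376, limma adjusted p = 5.95e-05) and by 1.97 in TNFR1/2 KO (SE 0.376, limma adjusted p = 0.000882), and against Sham by 3.19 (limma adjusted p = 0.000112) and 2.40 (limma adjusted p = 0.000777). The RIPK1 D138N changes were -2.18 against WT and -2.61 against Sham without the Xist-positive libraries, both called.

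From Sham to WT, the direction of the metallothioneins turned with the scaling. Mt1 was lower by 0.87 on the log2 scale (SE 0.330, limma adjusted p = 0.0372) with FPKM as deposited, lower by 0.52 with median-of-ratios scaling (-0.52, limma adjusted p = 0.213) and higher with quantile normalization (0.87, limma adjusted p = 0.0296). The Mt1 call was lost without Sham library c (-0.51, limma adjusted p = 0.178), without both low-depth Sham libraries (-0.36, limma adjusted p = 0.468), and, with folds near the full value, without WT library a, b or c (-0.83, -0.94 and -0.84, limma adjusted p = 0.0951, 0.0543 and 0.0837). Mt2 was at -0.43 (SE 0.376, limma adjusted p = 0.346) as deposited and at 1.47 (limma adjusted p = 0.00373) with quantile normalization. The falls of both genes in the mutants kept their direction and their call with either scaling.

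The ratio of Mt1 to Mt2 within a library was 1.501, 1.254 and 1.19 in the Sham libraries. It was 0.904, 1.04 and 0.952 in WT, 0.961, 1.10 and 1.11 in RIPK1 D138N, and 0.834, 0.768 and 0.795 in TNFR1/2 KO. Every Sham library was above every other library and every TNFR1/2 KO library below them, while WT and RIPK1 D138N overlapped. The 5 of 6 pairs of groups that did not overlap had an exact permutation p of 0.1 each, the smallest possible here, and 0.133 adjusted over the 12 comparisons. Reads that fit both genes can move this ratio, and the strand setting and the treatment of such reads are not given in the sources used here.

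Other metallothionein genes of the chromosome 8 cluster followed another order. Mt4, known from stratified epithelia, was listed at 0 in the 3 Sham libraries and at 15.03, 39.1 and 20.5 FPKM in WT. In the mutants it was listed at 0.234, 0 and 0 in RIPK1 D138N and at 0, 0.355 and 0.480 in TNFR1/2 KO, so every WT library was above all 9 others. Mt3, best known from brain, was at 2.84, 2.01 and 2.39 in WT and at most 0.134 elsewhere.

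Slc39a14 was at 68.7, 83.2 and 101 FPKM in Sham and at 89.6, 61.2 and 92.8 in WT. It was at 25.9, 21.3 and 18.8 in RIPK1 D138N and at 47.2, 53.6 and 43.6 in TNFR1/2 KO. WT and Sham overlapped, TNFR1/2 KO was below both, and RIPK1 D138N was below TNFR1/2 KO. Slc39a14 fell against WT by 1.83 in RIPK1 D138N (SE 0.206, limma adjusted p = 1.35e-05) and by 0.72 in TNFR1/2 KO (SE 0.206, limma adjusted p = 0.0113). Against Sham it fell by 1.89 (limma adjusted p = 7.33e-05) and 0.78 (limma adjusted p = 0.0155). From Sham to WT the value was -0.06 (limma adjusted p = 0.822) as deposited and 1.12 with quantile normalization (limma adjusted p = 0.00109). Without the Xist-positive libraries the change of RIPK1 D138N was -1.59 against WT and -1.65 against Sham, both called.

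The fall in TNFR1/2 KO was less firm. Against WT the call was lost without WT library a (-0.64, limma adjusted p = 0.0503) or c (-0.62, limma adjusted p = 0.0517). Against Sham it was lost without Sham library c (-0.65, limma adjusted p = 0.0617), TNFR1/2 KO replicate 3 (-0.72, limma adjusted p = 0.0598) or both low-depth Sham libraries (-0.51, limma adjusted p = 0.225), and with quantile normalization (-0.48, limma adjusted p = 0.144). Of the 9 tested Kupffer cell and macrophage markers, 4 were lower than WT in RIPK1 D138N and 7 in TNFR1/2 KO in limma. The shares of all genes lower were 21.9% and 17.5%. The part of these markers in the Slc39a14 values was not tested.

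Slc30a10, low in all groups, was at 3.53, 2.75 and 6.15 FPKM in Sham, 1.91, 1.06 and 1.54 in WT, 0.931, 1.47 and 1.13 in RIPK1 D138N, and 1.22, 1.74 and 1.91 in TNFR1/2 KO. All 9 libraries taken as ischemic were below Sham, and these 3 groups overlapped. It fell against Sham by 0.997 in WT (SE 0.231, limma adjusted p = 0.00250), by 1.19 in RIPK1 D138N (limma adjusted p = 0.00255) and by 0.92 in TNFR1/2 KO (limma adjusted p = 0.0120). The last call was lost without TNFR1/2 KO replicate 1 (-0.81, limma adjusted p = 0.0508) or without both low-depth Sham libraries (-0.80, limma adjusted p = 0.0591). Against WT the changes were -0.20 in RIPK1 D138N (95% interval -0.70 to 0.31) and 0.07 in TNFR1/2 KO (95% interval -0.43 to 0.57). If all fragments came from the longest transcript, 122 to 533 fragments lay behind each value.

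**Figure D3:**
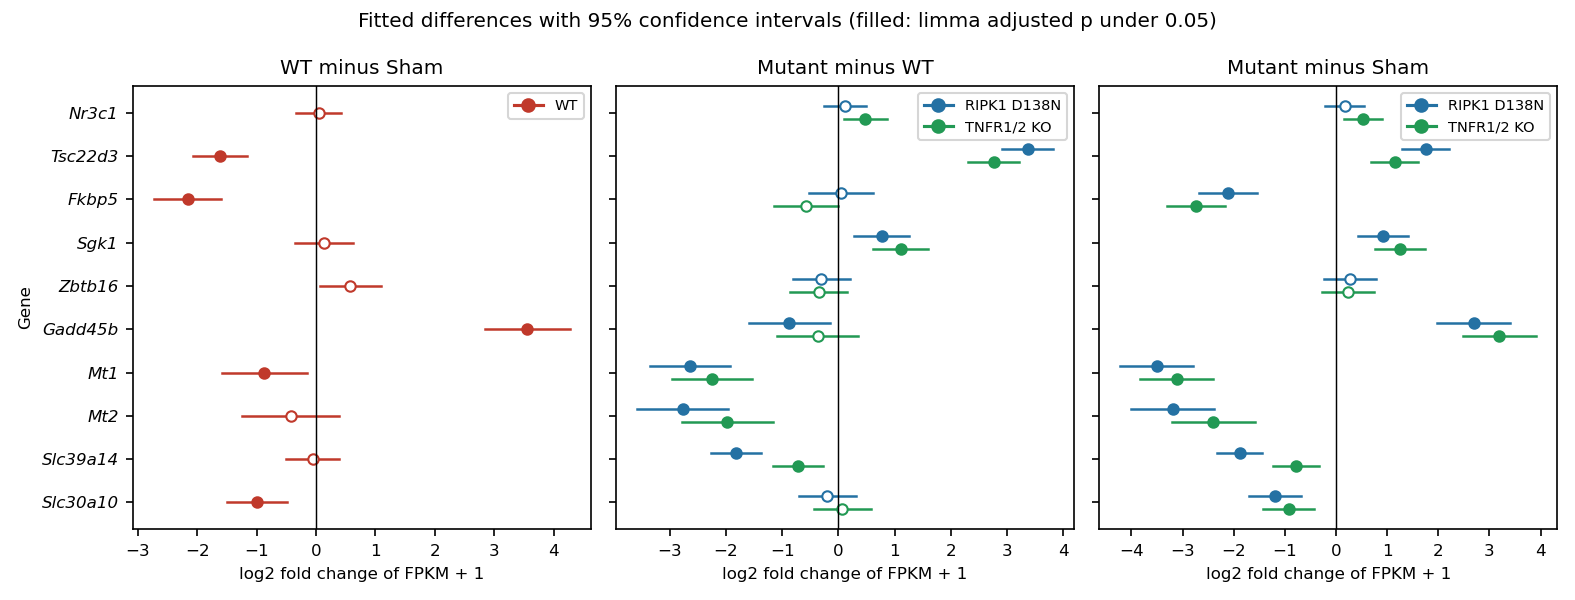
Log2 fold change of each of the 10 genes in WT against Sham, each mutant against WT and each mutant against Sham, from limma on log2(FPKM + 1), with 95% intervals; filled points are called at an adjusted p under 0.05 and open points are not. Tsc22d3, Fkbp5, Gadd45b, Mt1 and Slc30a10 were called against Sham in all 3 other groups, with Tsc22d3 lower in WT and higher in the mutants. Tsc22d3, Sgk1, Mt1, Mt2 and Slc39a14 were called against WT in both mutants. The Sham to WT values of Mt1, Mt2 and Slc39a14 turned positive with quantile normalization.

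The mutants were compared directly for all 10 genes. Slc39a14 was lower in RIPK1 D138N by 1.10 (-1.10, SE 0.206, 95% interval -1.55 to -0.66, limma adjusted p = 0.0283), with no overlap, and the TNFR1/2 KO mean was 2.19 times higher. The call was lost in 10 of 16 alternatives, among them without the Xist-positive libraries (-0.86, limma adjusted p = 0.508), with quantile normalization (-1.03, limma adjusted p = 0.0537) and without TNFR1/2 KO replicate 1, 2 or 3 (limma adjusted p = 0.0548, 0.10005 and 0.0926) or RIPK1 D138N replicate 2 or 3 (0.114 and 0.165). The value stayed between -1.24 and -0.86 in all 16. Tsc22d3, Fkbp5 and Nr3c1 did not overlap between the mutants either, but were not called. Intervals of the difference were 0.05 to 1.19 for Fkbp5, -0.74 to 0.02 for Nr3c1, -1.11 to 0.32 for Mt1 and -1.61 to 0.02 for Mt2, so differences of that size between the mutants remained possible.

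Other genes known to be induced by glucocorticoids were read from a list of 27, all tested. Against WT, 10 were higher and 6 lower in RIPK1 D138N (median log2 change 0.40, all genes 0.11), where 29.8% of all genes were higher and 21.9% lower. In TNFR1/2 KO 11 were higher and 5 lower (median 0.35, all genes 0.14), beside 29.6% and 17.5%. From Sham to WT, 9 were higher and 10 lower (13 and 9 with median-of-ratios scaling), beside 16.4% and 41.9%. Against Sham, 6 were higher and 5 lower in RIPK1 D138N (7 and 2 with median-of-ratios scaling, 4 and 2 without the Xist-positive libraries), beside 7.51% and 22.7%, and 6 each way in TNFR1/2 KO, beside 7.47% and 18.2%. Between the mutants limma called 0, beside 0.93% of all genes, and 3 were higher and 3 lower at an unadjusted p under 0.05.

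The largest called falls of the list from Sham to WT were in liver metabolic genes. Tdo2, which opens the breakdown of tryptophan, was at 1271, 1283 and 914 FPKM in Sham, 52.5, 65.4 and 35.2 in WT, 430.3, 394 and 384 in RIPK1 D138N, and 465, 516 and 501 in TNFR1/2 KO. It fell in WT by 4.50 (limma adjusted p = 2.02e-08) and remained below Sham in RIPK1 D138N by 1.503 (-1.503, limma adjusted p = 0.000485) and in TNFR1/2 KO by 1.21 (-1.21, limma adjusted p = 0.00209). Sds, serine dehydratase, fell from Sham to WT by 4.64 (limma adjusted p = 8.00e-08) and was higher than WT by 3.58 in RIPK1 D138N (limma adjusted p = 1.06e-06) and by 2.98 in TNFR1/2 KO (limma adjusted p = 3.60e-06). Pck1, of gluconeogenesis, averaged 166 ± 28.7 FPKM (SD, n = 3) in WT, 1431 ± 445 in RIPK1 D138N and 981 ± 148 in TNFR1/2 KO, higher than WT by 3.06 (limma adjusted p = 3.86e-06) and 2.56 (limma adjusted p = 1.66e-05). Pck1 averaged 1063 ± 317 FPKM in Sham, below its RIPK1 D138N mean. The summed hepatocyte markers were lowest in WT and between WT and Sham in both mutants. Apoa1 was the largest part of that sum. Ttr and Cps1, also in the sum, averaged 3163 and 329 FPKM in Sham and were not below that in either mutant. Limma called 2 of the 8 tested markers lower than Sham in RIPK1 D138N, 3 in TNFR1/2 KO and all 8 in WT. The shares of all genes lower were 22.7%, 18.2% and 41.9%. In each mutant 7 of the 8 were higher than WT and 0 lower, where 29.8% of all genes were higher in RIPK1 D138N and 29.6% in TNFR1/2 KO. The part of these markers in the values above was not tested.

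Pdk4, which restrains glucose oxidation, was at 121, 45.5 and 131 FPKM in WT and 2.18 to 4.80 in Sham, a rise of 4.50 (limma adjusted p = 3.68e-06). It was lower than WT in RIPK1 D138N by 2.74 (-2.74, limma adjusted p = 0.000236) and in TNFR1/2 KO by 2.62 (-2.62, limma adjusted p = 0.000383). The cell cycle inhibitor gene Cdkn1a (p21) was at 97.2 to 100.5 FPKM in WT, 8.57 to 19.6 in RIPK1 D138N and 22.7 to 34.9 in TNFR1/2 KO, and lower than WT by 2.91 (-2.91, limma adjusted p = 1.17e-05) and 1.72 (-1.72, limma adjusted p = 0.000757). Dusp1, a phosphatase of MAP kinases, rose against Sham by 1.87 in WT (limma adjusted p = 0.000587), 2.43 in RIPK1 D138N (limma adjusted p = 0.000456) and 3.12 in TNFR1/2 KO (limma adjusted p = 8.52e-05). Nfkbia, the inhibitor of NF-kB, rose against Sham by 1.86 in RIPK1 D138N (limma adjusted p = 0.000112) and 2.17 in TNFR1/2 KO (limma adjusted p = 3.53e-05). It was also higher in every WT library (62.6 to 75.5 FPKM) than in any Sham library (26.1 to 31.6).

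**Figure D4:**
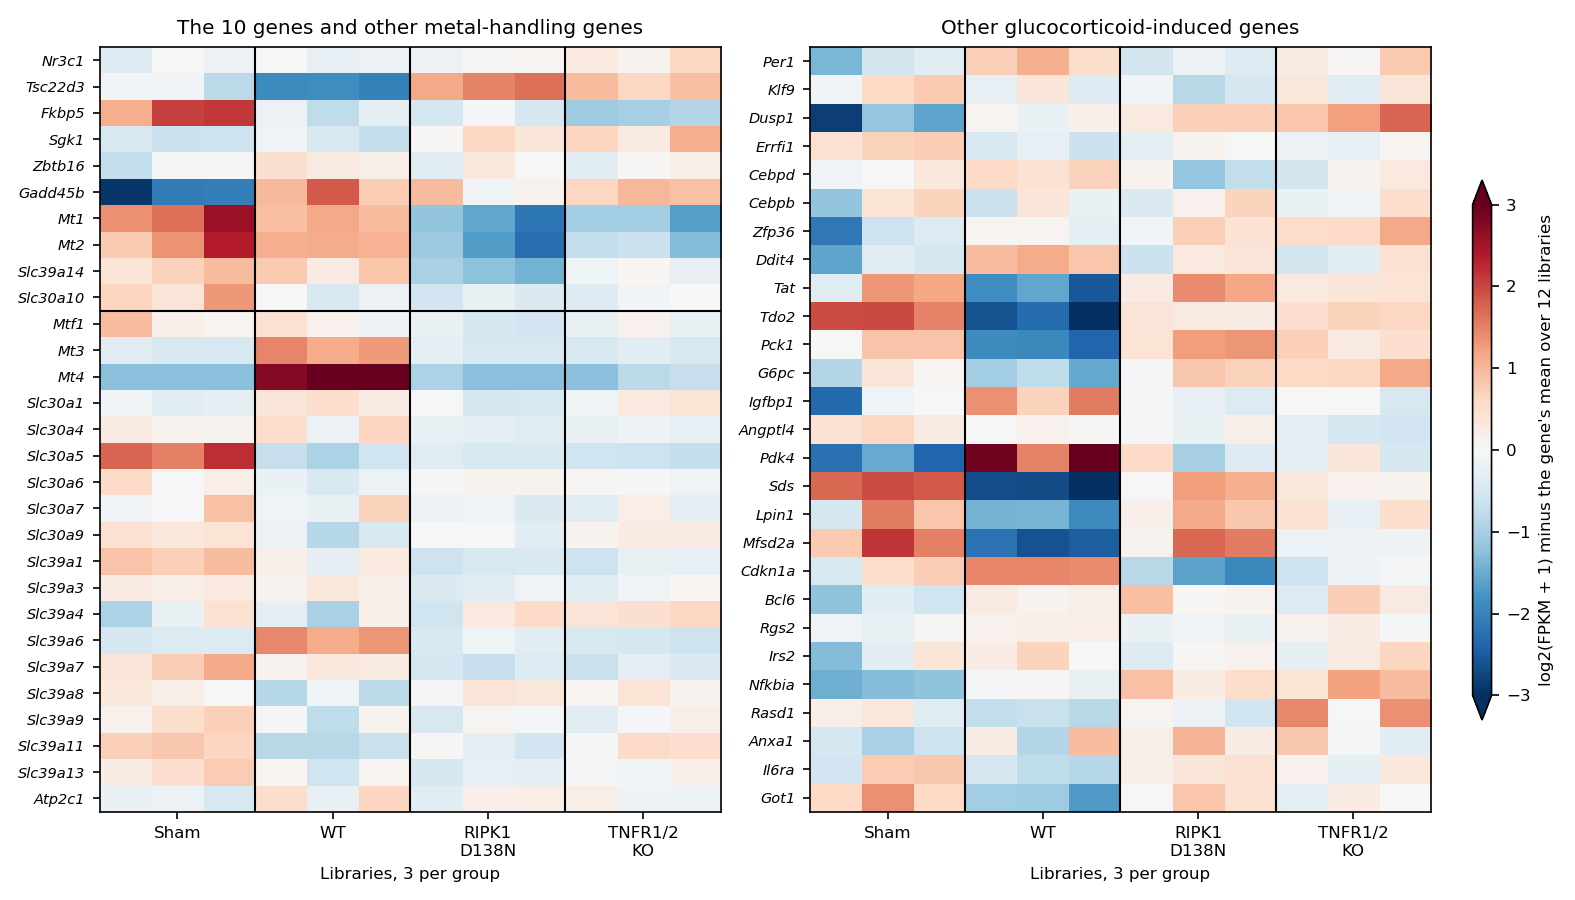
log2(FPKM + 1) minus the mean of that gene over the 12 libraries, for the 10 genes and the 19 tested metal-handling genes (left) and the 27 other glucocorticoid-induced genes (right), with libraries in columns and colour limited to 3 log2 units either way. Tdo2, Sds, Pck1 and Mfsd2a were low in all 3 WT libraries together with Tsc22d3, whereas Pdk4, Igfbp1 and Cdkn1a were high there, and Slc30a5 was high in Sham only.

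Genes that supply, carry or assist the receptor were read from a list of 20, all tested. In RIPK1 D138N against WT, 8 were higher and 4 lower, beside 29.8% and 21.9% of all genes, and in TNFR1/2 KO 6 were higher and 1 lower (6 and 4 with median-of-ratios scaling), beside 29.6% and 17.5%. From Sham to WT 3 were higher and 5 lower, beside 16.4% and 41.9%. Against Sham 3 were higher and 2 lower in RIPK1 D138N (none higher without the Xist-positive libraries), beside 7.51% and 22.7%, and 4 and 2 in TNFR1/2 KO, beside 7.47% and 18.2%. Hsd11b1, which regenerates active hormone inside hepatocytes, was at 275 to 316 FPKM in Sham, 40.3 to 79.2 in WT, 241 to 463 in RIPK1 D138N and 242 to 280.2 in TNFR1/2 KO. It fell from Sham to WT by 2.32 (limma adjusted p = 1.17e-05) and was higher than WT in RIPK1 D138N by 2.61 (limma adjusted p = 6.48e-06). Its partner H6pd, which supplies the cofactor, was lower than Sham in RIPK1 D138N by 1.91 (-1.91, limma adjusted p = 0.000459) and in TNFR1/2 KO by 1.06 (-1.06, limma adjusted p = 0.0155).

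Serpina6, the globulin that carries corticosteroids in blood, was at 118 FPKM in RIPK1 D138N replicate 1 and at 508 and 542 in replicates 2 and 3, the Xist-positive libraries. It was at 121 to 159.7 in TNFR1/2 KO, 23.9 to 57.5 in Sham and 7.28 to 21.3 in WT. Against WT it was higher by 4.54 in RIPK1 D138N (limma adjusted p = 1.66e-05) and by 3.40 in TNFR1/2 KO (limma adjusted p = 0.000184). Replicate 1 was just below the TNFR1/2 KO libraries. Fkbp4, the co-chaperone related to Fkbp5 that carries the receptor to the nucleus, was at 48.6, 80.4 and 76.0 FPKM in RIPK1 D138N, 36.5, 48.7 and 42.0 in TNFR1/2 KO, 18.6 to 22.0 in WT and 24.4 to 32.5 in Sham. It was higher than WT by 1.64 (limma adjusted p = 3.32e-05) and 0.99 (limma adjusted p = 0.00166), where Fkbp5 was not called. Of the other relatives of the 10 genes, Tsc22d2 rose from 3.22 to 3.83 FPKM in Sham to 14.1 to 20.1 in WT and was at 2.30 to 4.54 in RIPK1 D138N and 6.19 to 8.11 in TNFR1/2 KO. That order is the reverse of Tsc22d3 in WT against the other groups, and Tsc22d2 was lower than WT by 2.23 (-2.23, limma adjusted p = 4.14e-06) and 1.16 (-1.16, limma adjusted p = 0.000700).

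Of 26 other genes of zinc and metal handling, 19 passed the filter and were tested. Against WT, 1 was higher and 8 lower in RIPK1 D138N (median log2 change -0.37, all genes 0.11), where 29.8% of all genes were higher and 21.9% lower. In TNFR1/2 KO 3 were higher and 5 lower (median -0.25, all genes 0.14), beside 29.6% and 17.5%. Against Sham, limma called 0 higher in either mutant (also 0 at an unadjusted p under 0.05), and 8 were lower in RIPK1 D138N (5 with median-of-ratios scaling, 3 without the Xist-positive libraries) and 3 in TNFR1/2 KO, where 22.7% and 18.2% of all genes were lower. From Sham to WT, 5 were higher and 9 lower (5 and 4 with median-of-ratios scaling), beside 16.4% and 41.9%. Slc30a5, which loads zinc into the secretory pathway, was at 55.7, 46.5 and 77.1 FPKM in Sham and at 7.75 to 12.04 in all 9 others, lower than Sham by 2.57 in WT (-2.57, limma adjusted p = 3.04e-07), 2.26 in RIPK1 D138N (-2.26, limma adjusted p = 7.93e-06) and 2.47 in TNFR1/2 KO (-2.47, limma adjusted p = 2.73e-06). Slc39a7, which releases zinc from the secretory pathway, was lower than WT by 0.78 in RIPK1 D138N (-0.78, limma adjusted p = 0.00466) and by 0.70 in TNFR1/2 KO (-0.70, limma adjusted p = 0.00942). Other genes were higher than WT: Slc39a8 in RIPK1 D138N by 0.82 (limma adjusted p = 0.00611), and in TNFR1/2 KO Slc39a11 by 1.12 (limma adjusted p = 0.000542) and Slc30a9 by 0.70 (limma adjusted p = 0.00561). Slc30a1, the zinc exporter known as an MTF1 target like the metallothioneins, was at 6.56 to 8.38 FPKM in WT and 3.55 to 5.499 in RIPK1 D138N, lower by 0.70 (-0.70, limma adjusted p = 0.00860). It was at 4.19 to 5.19 in Sham, and WT was higher than Sham by 0.59 (limma adjusted p = 0.0185). In TNFR1/2 KO it was at 4.93 to 7.61 and overlapped WT. Its order over the groups therefore differed from that of Mt1 and Mt2.

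Interleukin 6 and STAT3 signalling is the other known route to Mt1, Mt2 and Slc39a14, and 9 of its genes were tested. In RIPK1 D138N against WT, 2 were higher and 5 lower (1 each way without the Xist-positive libraries), beside 29.8% and 21.9% of all genes, and in TNFR1/2 KO 1 was higher and 2 lower, beside 29.6% and 17.5%. From Sham to WT 3 were higher and 2 lower, beside 16.4% and 41.9%. Against Sham 2 were higher and 2 lower in RIPK1 D138N, beside 7.51% and 22.7%, and 2 and 1 in TNFR1/2 KO, beside 7.47% and 18.2%. Stat3 itself was at 21.02, 34.8 and 52.7 FPKM in Sham, 26.5, 18.3 and 29.2 in WT, 10.9, 11.99 and 9.65 in RIPK1 D138N, and 13.2, 17.3 and 17.2 in TNFR1/2 KO. It was lower than WT in RIPK1 D138N by 1.09 (-1.09, limma adjusted p = 0.00535), and lower than Sham by 1.56 (-1.56, limma adjusted p = 0.00157) and 1.05 (-1.05, limma adjusted p = 0.0159) in the mutants. Lifr, the receptor of leukaemia inhibitory factor, was at 13.7 to 21.9 FPKM in WT, 67.3 to 97.6 in RIPK1 D138N and 64.7 to 92.5 in TNFR1/2 KO, higher by 2.12 (limma adjusted p = 5.72e-06) and 2.04 (limma adjusted p = 9.45e-06). In RIPK1 D138N against WT, Il6ra was also higher, by 1.05 (limma adjusted p = 0.0125), and Jak1 was lower by 0.65 (-0.65, limma adjusted p = 0.0442).

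The genes with the nearest patterns were taken by Pearson's r of log2(FPKM + 1) over the 12 libraries, among 5422 genes with a mean of at least 5 FPKM. These are descriptions, since libraries of a group share its condition and the groups form separate clusters. For Tsc22d3 they were Hpgd (r = 0.990), which inactivates prostaglandins, Akr1c19 (0.983) and N4bp2l1 (0.979). Hpgd averaged 18.2 FPKM in Sham, 4.71 in WT, 80.3 in RIPK1 D138N and 51.5 in TNFR1/2 KO. For Fkbp5 they were Rnf185 (0.963), Clcn3 (0.961) and Tapt1 (0.951), and for Sgk1 they were Hook2 (0.911), Stard4 (0.910) and S1pr1 (0.902). Gadd45b was nearest to Atf3 (0.973) and Maff (0.968), both early stress transcription factors, and H2-Q6 (0.967), and Atf3 averaged 2.84 FPKM in Sham and 131, 78.5 and 89.2 in WT, RIPK1 D138N and TNFR1/2 KO. Mt1 and Mt2 were nearest to each other (0.986), followed by Eif4a1 (0.976) and Wdr74 (0.975) for Mt1 and Gnl2 (0.974) and Eif4a1 (0.969) for Mt2. Slc39a14 was nearest to Lcn2 (0.965), an acute phase protein that averaged 2303, 2292, 52.4 and 215 FPKM in Sham, WT, RIPK1 D138N and TNFR1/2 KO, then to Wipi2 (0.959) and Sh3bp2 (0.956). Slc30a10 was nearest to Uggt1 (0.965), Gorasp2 (0.962) and Surf4 (0.958), all of the secretory pathway. Zbtb16 (Ddit4, 0.896, Flywch1, 0.873, and Wwc1, 0.856) and Nr3c1 (Npc1, 0.871, Gprc5c, 0.844, and Sema4g, 0.840) had the weakest nearest patterns.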

How the data were processed

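Per the file headers, the authors deposited 1 table of FPKM for all 12 mouse liver libraries. Per the submitters' processing notes, the tools were STAR 2.5.4a, Cufflinks 2.2.1 and Cuffdiff with mm10. Columns of WT and Sham could be matched only to their group, so their libraries carry letters. Where a symbol occurred more than once (131 rows), the row with the highest mean was kept. limma 3.58.1 in R 4.3.3 was fitted to log2(FPKM + 1) with a mean-variance trend, for genes that reached 1 FPKM in 3 or more libraries, in 1 model of 4 group means, and p-values were adjusted within each comparison. Ratios were tested by exact permutation in SciPy 1.17.1. Depth was read from genes with 1 transcript: 93.09 to 95.58% of their low values lay within 0.1 of a whole number of fragments, where 20% would by chance. On simulated data the fit recovered 88 to 98% of changes of 2 log2 units and 52 to 68% of changes of 1. In the simulation 200 of 11718 genes were changed, all with a mean log2(FPKM + 1) above 2. Most comparisons of the groups called a far larger share, and Slc30a10 lay below that mean, so the rates may differ there.

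The genes and lists were chosen with earlier results of these data known. All 10 genes are reported in every comparison. Of other lists, up to 3 called genes in each direction whose groups did not overlap could be named where the higher mean was 5 FPKM or more, and for each gene its 3 nearest patterns. Mt3, Cd68, Clec4f, Apoa1, Ttr, Cps1 and the marker sums were added after their values were seen. The ratios were not among the tests planned beforehand, so their p-values add no separate support. Alternatives covered pseudocount, filter, scaling, trend, samples in the fit, replicate block and left-out libraries; quality weights per library and leaving out both low-depth Sham libraries were chosen after seeing the data. Without the Xist-positive libraries RIPK1 D138N has 1 library, which is then assumed to vary like the other groups.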

Additional observations from a re-analysis of the deposited data

Results flagged for a closer look

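Slc39a14 differed between the mutants, with a log2 change of -1.10 in RIPK1 D138N against TNFR1/2 KO (limma adjusted p = 0.0283), and was lower in all 3 RIPK1 D138N libraries than in any TNFR1/2 KO library. As both mutants were set against the same WT libraries, this is also the test of the difference between their changes from WT, -1.83 and -0.72. It was the single one of the 10 genes for which the mutants differed past the threshold, and 10 of 16 alternatives lost the call.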

How the results depend on the processing

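Over the alternatives, 823 of 898 values for the 10 genes stayed on their side of the threshold (28 of these, all uncalled, with the other sign), 53 lost the call, 19 gained one and 3 were reversed. The reversed values were the changes from Sham to WT of Mt1 (0.87), Mt2 (1.47) and Slc39a14 (1.12) with quantile normalization, where 8 of the 10 genes were called; the cause was not tested. With a mean of at least 5 FPKM required, 4217 genes were called in WT against Sham, 3658 and 3367 in RIPK1 D138N and TNFR1/2 KO against WT, and 2139 and 1907 against Sham, out of fewer genes tested. RIPK1 D138N against Sham gave 1043 called genes without the Xist-positive libraries, 6026 with quality weights (0.317 to 7.61 per library) and 1785 without both low-depth Sham libraries. TNFR1/2 KO against Sham gave 1863 without those. Leaving out 1 library gave 2249 to 3505 genes in RIPK1 D138N against Sham (lowest without RIPK1 D138N replicate 3) and 1856 to 2609 in TNFR1/2 KO against Sham (lowest without TNFR1/2 KO replicate 3).

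Between the mutants, 109 genes were called. There were 60 with no filter, 20 with only these libraries in the fit, 39 without the Xist-positive libraries, 1785 with quality weights, and 27 to 588 leaving out 1 library. The highest came without RIPK1 D138N replicate 1, and 48, 31, 30 and 27 without TNFR1/2 KO replicates 2 and 3 and RIPK1 D138N replicates 2 and 3. Of the 10 genes, 0 were called with no filter, with quantile normalization, with only these libraries and without the Xist-positive libraries, 4 with quality weights, and 0 to 1 leaving out 1 library. With a replicate block 11 genes and 0 of the 10 were called (Slc39a14 -1.10, limma adjusted p = 0.257). After the group mean of each gene was subtracted, same-numbered libraries of the mutants correlated at -0.0982, -0.202 and 0.0573. Differently numbered ones correlated at -0.0823 to 0.180. With 3 libraries a group these values cannot decide whether libraries were paired, and the numbers were not taken as pairs. No paired analysis was possible for WT or Sham because each column's number matches the title of 1 sample and, for some, the description of another. Low values were coarsest in Sham libraries b and c.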
